A study of Mus musculus with 4 samples.

Results

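Extracellular matrix and collagen genes are a list of 42 genes among the 21861 features that were counted in mouse brain tumors by single-cell RNA sequencing, and all 42 were among the features. They were taken by name, with earlier results of these data known, and comprise 5 fibrillar collagens, 13 genes of the basement membrane, 5 other collagens, 8 genes of the elastic fibre, 4 proteoglycans, and 7 further glycoproteins and matricellular proteins. The tumors are high-grade gliomas of the genotype hGFAP-cre::TP53Fl/Fl::lsl-MYCN. In these mice, Cre recombinase under the human GFAP promoter acts in neural precursor cells, where it deletes Trp53 and switches on a transgene with human MYCN and luciferase, which is called the reporter. The stromal cells examined here are host cells that Cre was not aimed at, and there was no tumor-free brain among the samples. Mice 4 and 5 were 43 days old (P43) and mice 6 and 7 were 70 days old (P70), and each mouse gave 1 library, so that n is 2 mice per age. Age cannot be told apart from any difference in how the libraries of each age were prepared. For every pair or row of values, the order is mouse 4, mouse 5, mouse 6 and mouse 7, and ± beside a log2 change or difference gives the SE of the edgeR fit. Statements that the ages did not overlap describe 2 mice per age and were given no test. They rest on the same counts as the tests and add no evidence to a call. The share over all genes is not given for them.

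The extracellular matrix is the protein scaffold between cells. In the brain, most fibrillar collagen belongs to the meninges and to the walls of larger vessels, whereas the basement membrane around endothelial cells and pericytes is a sheet of type IV collagen, laminins, nidogens and perlecan. Fibronectin, elastic fibres and small proteoglycans attach to both, and matricellular proteins such as Sparc, Mgp and periostin modify how cells bind to them or how they mineralize.

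Of the barcodes, between 1456 and 3469 cells per mouse passed the filters, with medians of 1419, 4200, 4587 and 10449 unique molecular identifiers (UMIs) per cell. Levels are given in CPM, the UMIs of a gene scaled to a common total, for which the UMIs of each class were pooled within each mouse, and since 1 end of each mRNA is tagged they do not scale with gene length. Clusters were called without the 42 genes and without 59 related genes. The classes most used here are the pericyte and smooth muscle cluster (268, 262, 214 and 37 cells), a fibroblast-like cluster (19, 3, 30 and 0 cells), the endothelial cells (EC; 444, 499, 293 and 36 cells), and the oligodendrocyte-lineage-like (OL-like) tumor cells (1795, 219, 316 and 1844 cells). As in the study, pericytes, smooth muscle cells and fibroblasts together are called mural cells in the tests. The pericyte list (Rgs5, Vtn and 8 others) was raised in 10 of 10 genes in the first cluster, the fibroblast list in 18 of 20 genes in the second and the EC list in 10 of 10 genes in the EC. The first cluster held a sub-cluster of 206 cells (87, 36, 81 and 2) with a median of 735 UMIs. Against the other mural cells, the oligodendrocyte-lineage list led in it, and Cldn5, H2-Aa and Mbp were among its top genes. Without it, 27 of 37 matrix genes were higher in mural cells at P70 and 2 lower (1023 and 784 of all 8403 genes). The sums of mouse 7 rest on 93404 UMIs of mural cells and 71581 UMIs of EC, so that a level of up to 32.1 CPM in its mural cells and 41.9 CPM in its EC is no more than the 3 UMIs taken as the floor. Y chromosome genes were at 222 CPM in the library labelled female and 0.634 CPM in the library labelled male at P43, so sex was not used. Pairs of libraries shared between 1 and 3 cell barcodes.

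The promoter sequences are shown for 4 of the collagens whose mural levels at P43 and P70 did not overlap and were at least 4-fold apart, to give the sequence context of genes that moved together. Each line holds the 250 bases before the start of the RefSeq transcript (GRCm38.p6), 5′ to 3′ on the strand of the gene, and none overlaps an exon annotated in GENCODE vM21. The motifs searched on both strands were the TATA box (TATAAA), the CCAAT box (CCAAT), the GC box (GGGCGG) and the E-box (CACGTG), and matches are in capitals.
Col3a1, chr1:45311288-45311537, plus strand: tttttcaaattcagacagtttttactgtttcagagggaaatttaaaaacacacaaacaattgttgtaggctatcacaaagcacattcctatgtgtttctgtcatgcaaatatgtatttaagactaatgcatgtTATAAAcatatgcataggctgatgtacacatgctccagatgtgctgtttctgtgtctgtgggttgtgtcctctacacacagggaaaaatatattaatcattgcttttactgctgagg
Col5a1, chr2:27886175-27886424, plus strand: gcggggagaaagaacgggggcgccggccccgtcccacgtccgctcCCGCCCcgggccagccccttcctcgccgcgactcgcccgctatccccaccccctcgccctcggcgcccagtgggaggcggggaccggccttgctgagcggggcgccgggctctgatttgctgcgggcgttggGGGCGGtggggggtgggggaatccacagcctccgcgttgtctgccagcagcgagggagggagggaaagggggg
Col6a3, chr1:90843972-90844221, minus strand: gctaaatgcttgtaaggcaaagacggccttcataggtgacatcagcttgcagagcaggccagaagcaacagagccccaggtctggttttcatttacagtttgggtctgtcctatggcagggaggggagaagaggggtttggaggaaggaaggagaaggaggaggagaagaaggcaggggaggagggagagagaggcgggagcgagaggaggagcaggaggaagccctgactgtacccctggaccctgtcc
Col15a1, chr4:47207762-47208011, plus strand: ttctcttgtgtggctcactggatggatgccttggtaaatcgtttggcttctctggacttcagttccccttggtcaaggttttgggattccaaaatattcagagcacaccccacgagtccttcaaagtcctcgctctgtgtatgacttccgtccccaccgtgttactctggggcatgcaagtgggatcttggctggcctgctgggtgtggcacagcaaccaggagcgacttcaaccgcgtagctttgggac
Such windows were at hand for 29 of the 42 genes, 37 windows in all. The TATA box letters were found in 4 of these 37 windows, against 12.4% of all 32851 windows, and the CCAAT letters in 9, against 33.8%. GC box letters were found in 24 of the 37, against 32.7% of all windows, and the E-box letters in 2 windows of Fbln1, against 6.02%. A match of letters is a description and not a binding site.

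The matrix genes as a whole had their highest levels in mural cells, followed by EC, and low levels in tumor and immune cells. Summed over the 42 genes, the level in the pericyte and smooth muscle cluster was 16343 and 17343 CPM at P43 and 34943 and 30074 CPM at P70. In the EC it was 10306 and 8991 CPM at P43 and 11743 and 14347 CPM at P70, and in the OL-like tumor cells 953 and 1047 CPM at P43 and 1079.5 and 757 CPM at P70. In each of the 4 mice the pericyte and smooth muscle cluster was highest of these 3 classes and the tumor cells were lowest. The mural sum, with the fibroblast-like cells included, was above the EC sum by 1.61, 1.97, 3.17 and 2.10 times, a mean log2 ratio of 1.10 ± 0.41 (SD, n = 4 mice). The fibroblast-like cells had 23729, 40355 and 47882 CPM in mice 4, 5 and 6, more in each of these mice than the pericyte and smooth muscle cluster. Myeloid cells had between 1293 and 2231 CPM and lymphoid cells between 59.6 and 685 CPM. Cells of the astrocyte-like (AC-like) tumor cluster had 1099 and 1675 CPM at P43 and 5441 and 3919 CPM at P70, with only 4 and 8 cells at P43.

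**Figure D1:**
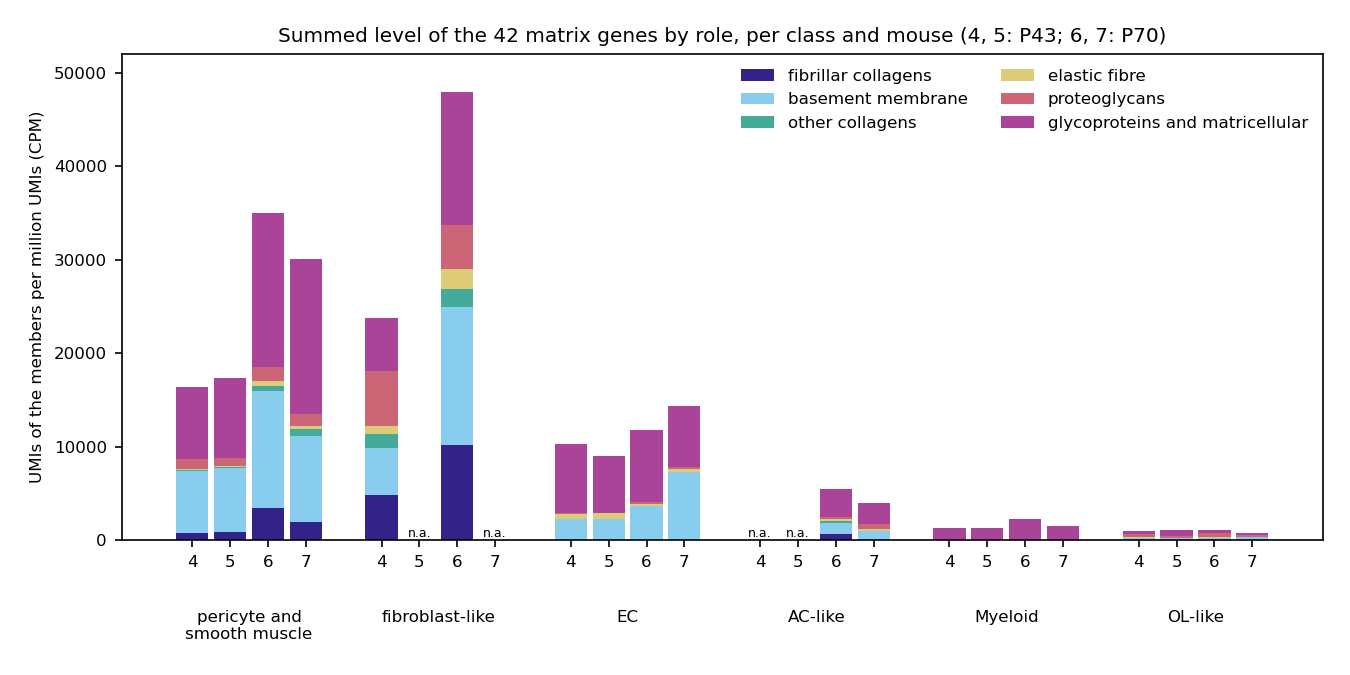
Stacked bars of the level summed over the 42 matrix genes (CPM, linear axis from 0), 1 bar per mouse (4 and 5 P43, 6 and 7 P70) within each of 6 classes, coloured by role group, with n.a. for sums of under 10 cells. The pericyte and smooth muscle bars reach 16343 and 17343 CPM at P43 and 34943 and 30074 CPM at P70, above the EC bar of each mouse, and the OL-like bars are between 757 and 1080 CPM.

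How much of the matrix RNA of a library came from each class varied between the mice. The pericyte and smooth muscle cluster held 32.7%, 39.6%, 44.6% and 8.25% of the matrix UMIs of the libraries, with 8.07%, 18.0%, 7.84% and 1.07% of the cells. EC held 32.9%, 41.9%, 17.8% and 3.02%. OL-like cells held 27.2%, 11.6%, 5.08% and 54.7% (exact binomial 95% limits within 1 percentage point of each share, which cover counting error only). Mouse 7, in which OL-like cells held most of the matrix UMIs, was the library with the fewest vessel cells. OL-like cells made up 53.2% of the cells of mouse 7 and 62.2% of all its UMIs. AC-like cells held 15.2% of its matrix UMIs. In mouse 6, fibroblast-like cells held 13.4% of the matrix UMIs and Myeloid cells 12.6%.

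By gene, the class with the highest mean level over the mice with at least 10 of its cells was the fibroblast-like cluster for 28 of the 42 genes. Its means rest on mice 4 and 6 alone, and the share of all genes that peaked in it was not computed. Col4a2 (1694 against 1643 CPM) and Bgn (1177 against 1127 CPM) were nearly level with the pericyte and smooth muscle cluster. The means of Eln, Col5a1 and Loxl1 (87.1, 101 and 115 CPM) lie below its floor of 136 CPM in mouse 4. The pericyte and smooth muscle cluster was highest for Col4a1, Lama2, Lama4, Lamb2, Col8a1 and Mgp. EC were highest for Lama5, Hspg2, Ltbp4, Fn1 and Sparc. A single gene each had its highest level in Myeloid cells (Tgfbi, a secreted protein that binds collagen and integrins), in oligodendrocyte precursor cells (Vcan, the hyaluronan-binding proteoglycan versican) and in AC-like cells (Tnc, the hexameric glycoprotein tenascin C).

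**Figure D2:**
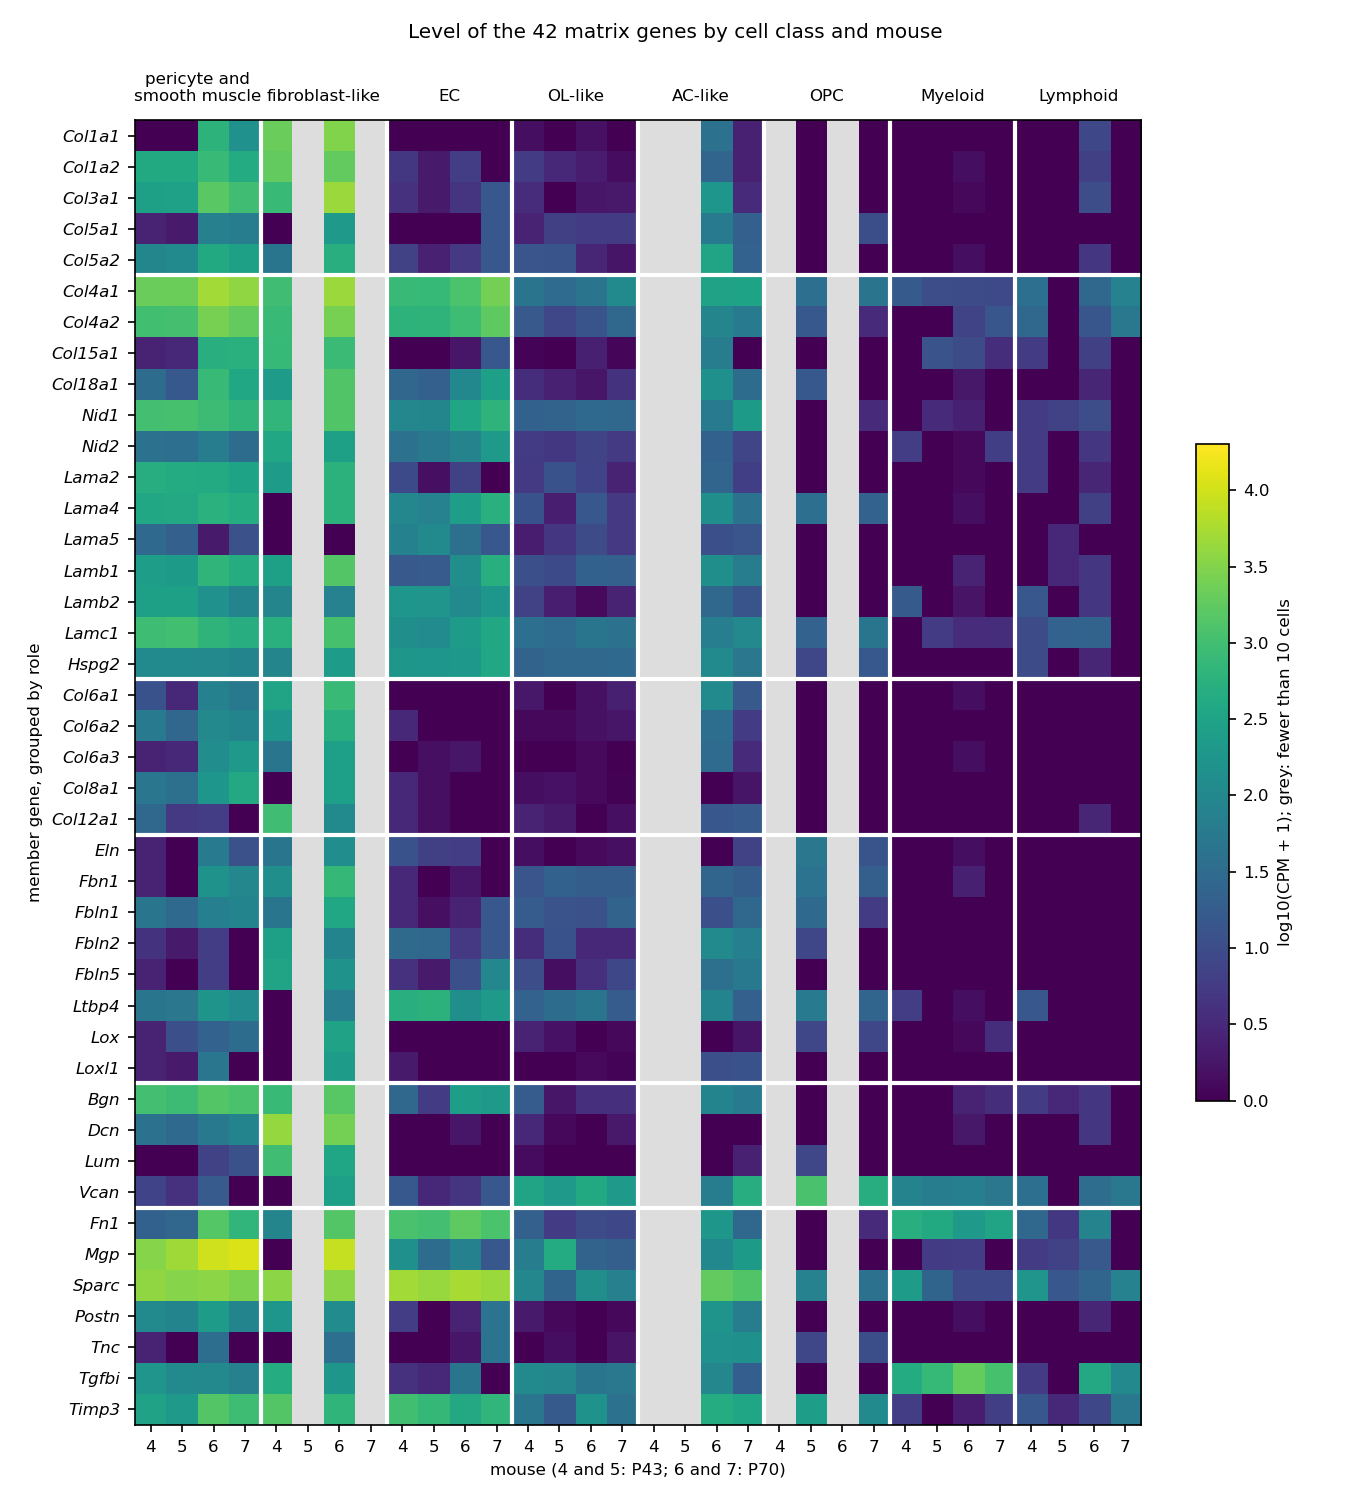
Level of each of the 42 genes (rows, by role group) in each mouse and cell class (columns), as log10(CPM + 1), with grey where a mouse had under 10 cells of the class. In the pericyte and smooth muscle columns Col1a1, Col15a1 and Fn1 are dark at P43 and bright at P70, Tgfbi is brightest in Myeloid cells, and the fibrillar collagens are dark in EC and in OL-like cells.

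The fibroblast-like cells had the highest levels of collagen I and of the small proteoglycans Dcn and Lum. Col1a1, the alpha 1 chain of type I collagen, was at 2091, 1585 and 3063 CPM in these cells in mice 4, 5 and 6. Dcn, the small proteoglycan decorin that binds to collagen fibrils, was at 4137, 3243 and 2543 CPM, and Lum, the related lumican, at 955, 865 and 354 CPM. In all 3 mice these genes were above every value of the pericyte and smooth muscle cluster. Col12a1, a collagen that attaches to fibril surfaces, was at 955 and 1153 CPM at P43 and 110.4 CPM in mouse 6. Mgp, the matrix Gla protein that inhibits calcification, had no UMI in fibroblast-like cells of mice 4 and 5, where the floor is 136 and 216 CPM, and 8204 CPM in mouse 6. With 19, 3 and 30 cells in 3 mice and none in mouse 7, ages were not compared within this cluster.

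Mural cells were set against EC of the same mice. Of the 42 genes, 33 passed the filter on low counts and 21 were higher and 3 lower in mural cells than in EC (edgeR, mouse as a block), where 14.7% of all 9005 genes were higher and 15.2% lower. The median log2 difference was 2.57 over the 33 genes and 0.01 over all genes. Since 8 of the 33 had under 10 UMIs in EC and passed the filter through mural cells, the 25 with at least 10 UMIs in each class were counted as well, of which 13 were higher and 3 lower, with a median of 1.30. Of the fibrillar collagens, Col3a1 in EC was 3.03 and 1.02 CPM at P43 and 3.39 and 14 CPM at P70 against 291 and 318 CPM at P43 and 2093 and 953 CPM at P70 in mural cells, a log2 difference of 8.0 ± 0.46, adjusted p = 1.1e-05. For Col1a2 the difference was 7.57 ± 0.35, adjusted p = 6.4e-06. Each mural value of these genes was above each EC value. Among the genes of the basement membrane 7 of 13 were higher in mural cells, Col4a1 by 1.33 ± 0.27, adjusted p = 0.0056, and Lama2, the alpha 2 chain of laminin, by 6.70 ± 0.48, adjusted p = 2.4e-05. The 3 that were lower in mural cells were Lama5, the alpha 5 laminin chain, by -2.50 ± 0.46, adjusted p = 0.0035, Hspg2, which encodes perlecan, by -0.92 ± 0.23, adjusted p = 0.015, and Ltbp4, which tethers latent TGF-beta to elastic fibres, by -2.17 ± 0.69, adjusted p = 0.045. Ltbp4 was at 497 and 581 CPM at P43 and 140.0 and 209.6 CPM at P70 in EC and at 43.6 and 48.2 CPM at P43 and 147 and 118 CPM at P70 in mural cells, so that the groups overlapped at P70. The call of Ltbp4 was lost without the fibroblast-like cells, with equal cell numbers, with the matrix genes kept for clustering, and without mouse 4, 5 or 7, with an adjusted p of up to 0.146 (edgeR).

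Against the OL-like tumor cells, 36 of the 42 genes could be tested, of which 30 were higher in mural cells and 1 lower, where 25.5% of all 10597 genes were higher and 25.3% lower. Of the 33 with at least 10 UMIs in each class, 27 were higher and 1 lower, and the other 3 (Col1a1, Col8a1 and Lum) passed the filter through mural cells. The gene that was lower was Vcan, by -4.47 ± 0.61, adjusted p = 0.00033, at 323 and 214 CPM at P43 and 403 and 211 CPM at P70 in OL-like cells and 6.23 and 3.08 CPM at P43 and 60.4 and 0 CPM at P70 in mural cells. Vcan was higher in OL-like cells than in mural cells of every mouse. In oligodendrocyte precursor cells it was at 1432 and 1176 CPM at P43 and 391 and 481 CPM at P70, although mouse 6 had a single such cell. Among the tumor cells, the AC-like cells of mice 6 and 7 had Sparc, a collagen-binding matricellular protein, at 1841 and 1357 CPM, against 97.1 and 23.1 CPM at P43 and 130.0 and 74.9 CPM at P70 in OL-like cells. Tnc was at 149 and 140.4 CPM in AC-like cells of mice 6 and 7, whereas no UMI was counted in the 4 and 8 AC-like cells of P43, and its difference from the other classes was not tested.

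Most of the matrix genes that could be tested were higher at P70 than at P43 in mural cells. Of the 38 that passed the filter on low counts, 28 were higher and 2 lower at P70 (edgeR), where 11.2% of all 8633 genes tested were higher and 8.12% lower. The median log2 change was 1.71 over the 38 genes and -0.01 over all genes. A gene can pass the filter through P70 alone, and of the 34 genes with at least 10 UMIs at each age 25 were higher and 1 lower. Without TMM scaling the median of all genes was at -0.21, all genes split into 756 higher and 1163 lower, and the matrix genes into 26 higher and 2 lower. Without the fibroblast-like cells, 34 genes could be tested, of which 25 were higher and 2 lower (11.1% and 8.28% of all genes). Leaving out mouse 6, which had most mural UMIs at P70, left 34 matrix genes to test, with the single P70 mouse assumed to vary like the P43 mice. The median log2 change was then 1.015 over the 34 genes and -0.195 over all genes. The calls that were lost or could not be tested without mouse 6 were those of Col5a1, Fbn1, Lama5, Bgn, Postn, Col1a2, Ltbp4, Lama4, Col6a2, Col6a1, Dcn, Lum, Nid2, Col1a1, Fbln5, Fbln1 and Lox. In total 14 of the 30 called genes were called under every setting that gave them a value. Among these 14, Col5a1 and Fbn1 had a value under 15 and 16 of the 17 alternatives, and none without mouse 6.

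**Figure D3:**
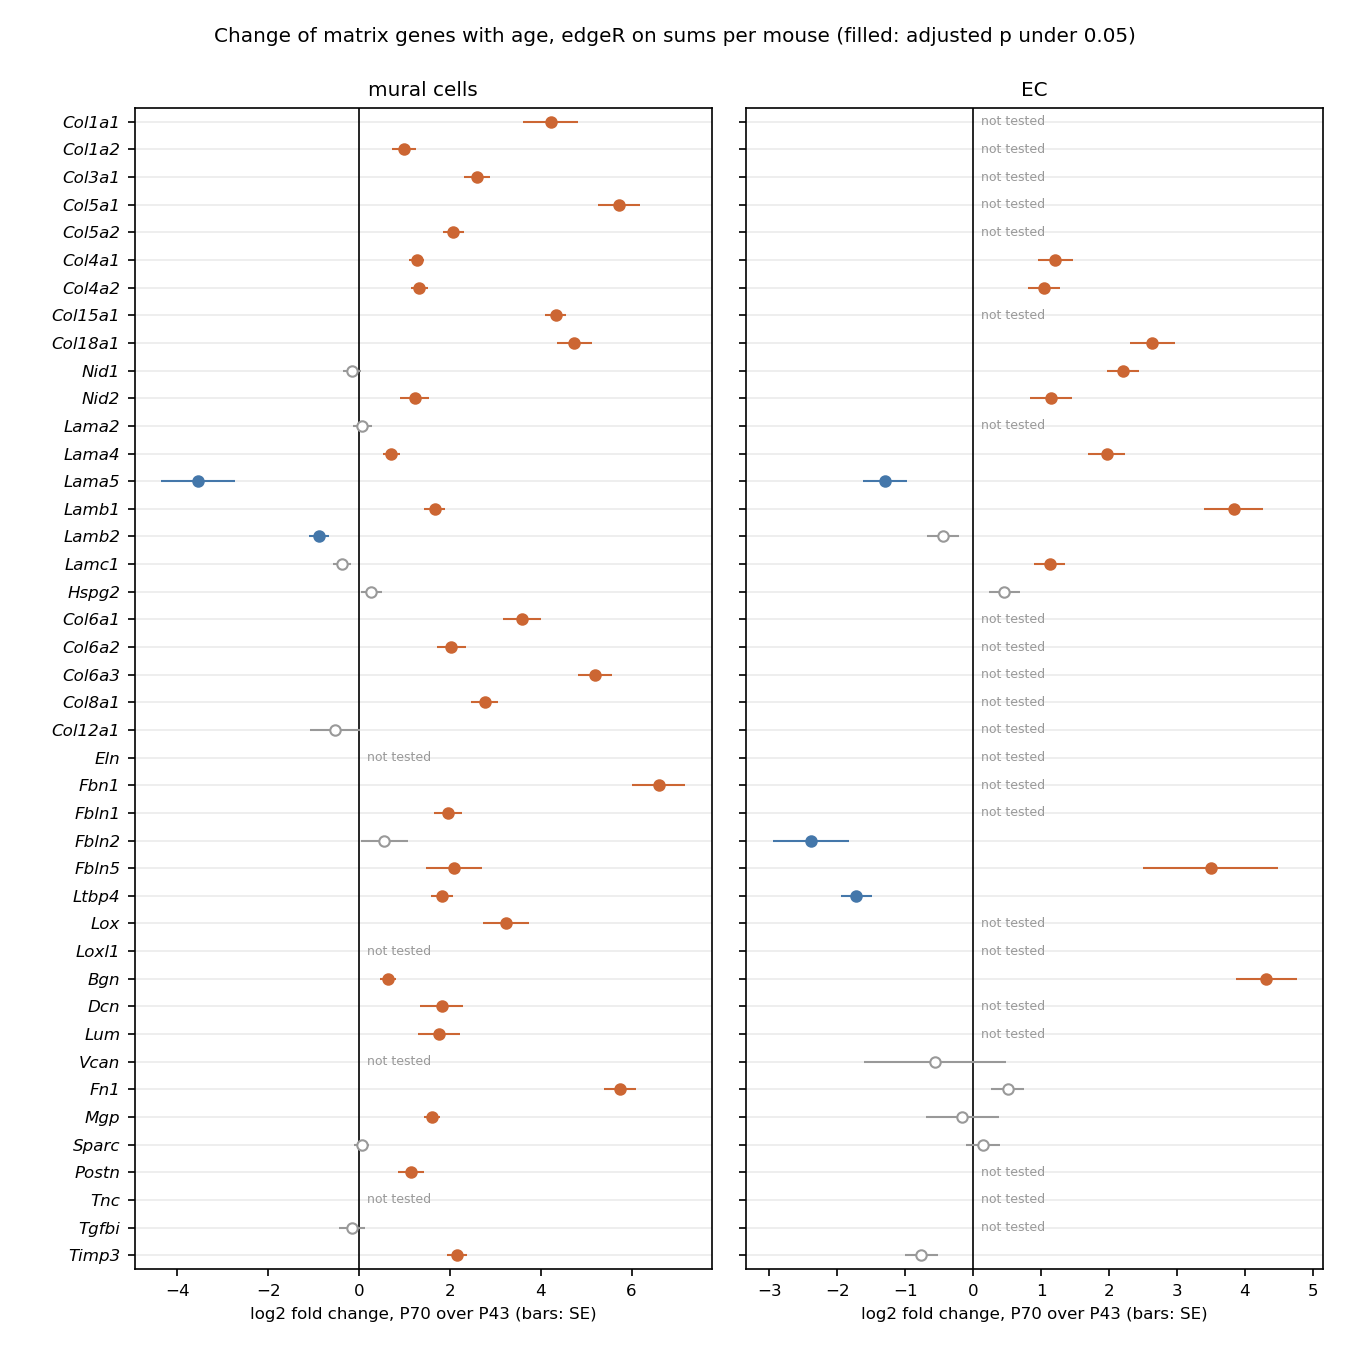
Log2 change from P43 to P70 of the 42 genes, ordered by role group, in mural cells and in EC, with bars of 1 SE from the edgeR fit (2 mice per age) and filled points for an adjusted p under 0.05, and genes below the filter marked as not tested. In mural cells 28 filled points lie right of 0 and 2 (Lama5 and Lamb2) left of it, and in EC 10 lie right and 3 (Lama5, Fbln2 and Ltbp4) left.

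All 5 fibrillar collagens, the chains that build cable-like fibrils, were higher at P70 in mural cells. Col3a1, the type III chain of distensible tissues, was at 291 and 318 CPM at P43 and 2093 and 953 CPM at P70, a log2 change of 2.59 ± 0.29, adjusted p = 3.4e-05. Both P70 values were above both P43 values, and without mouse 6 the change was 1.80. Col5a2, a type V chain that starts fibrils, was at 91.9 and 116 CPM at P43 and 432 and 278 CPM at P70 (log2 change 2.08 ± 0.24, adjusted p = 4.6e-05). Its partner Col5a1 was at 1.56 and 2.05 CPM at P43 and 97.6 and 64.2 CPM at P70, a log2 change of 5.72 ± 0.47, adjusted p = 4.2e-06. For Col5a1, P43 rests on 3 UMIs in all, so that it passed the filter through P70. Neither gene overlapped between the ages. Col1a1 was at 71.6 and 22.6 CPM at P43 and 1042 and 149.9 CPM at P70 (log2 change 4.21 ± 0.61, adjusted p = 0.00029), but it had 0 UMIs in the pericyte and smooth muscle cluster of both P43 mice, against 599 and 149.9 CPM at P70. Its mean at P70 there was at least 94.1-fold over the floor of 3 UMIs per library. Without mouse 6 the mural change of Col1a1 was 1.93 (adjusted p = 0.12). Col1a2, the alpha 2 chain of the same collagen, was already present at P43, at 405 and 415 CPM at P43 and 802 and 439 CPM at P70 in the pericyte and smooth muscle cluster, so that the ratio of Col1a1 to Col1a2 UMIs there was 0, 0, 0.746 and 0.342. In mural cells the log2 change of Col1a2 was 0.99 ± 0.27, adjusted p = 0.02. The ages overlapped there, with means of 455 CPM at P43 and 718 CPM at P70, and without mouse 6 the change of Col1a2 was 0.11.

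In the basement membrane 7 of 13 genes were higher, 2 lower, and 4 did not pass. The 2 chains of the type IV collagen network rose: Col4a1 was at 2029 and 2213 CPM at P43 and 4991 and 3876 CPM at P70 (log2 change 1.26 ± 0.16, adjusted p = 0.00011), and Col4a2 at 998 and 1081 CPM at P43 and 2620.0 and 1874 CPM at P70 (log2 change 1.33 ± 0.18, adjusted p = 0.00019). The ratio of Col4a1 to Col4a2 UMIs in the pericyte and smooth muscle cluster was 2.06, 2.07, 1.94 and 2.07, much the same at both ages. Higher folds were found for the collagens that carry an endostatin-like domain at their end. Col18a1 was at 38.9 and 23.6 CPM at P43 and 900.4 and 375 CPM at P70 (log2 change 4.74 ± 0.38, adjusted p = 3.9e-06). Col15a1, which links the basement membrane to collagen fibrils, was at 28 and 33.9 CPM at P43 and 561 and 535 CPM at P70 (log2 change 4.33 ± 0.23, adjusted p = 1.9e-07). In the pericyte and smooth muscle cluster Col15a1 was at 1.61 and 2.08 CPM at P43 and 498 and 535 CPM at P70, where P43 rests on 3 UMIs in all, and without the fibroblast-like cells its log2 change was 8.13 ± 0.34, adjusted p = 2.8e-09. Both genes were far higher in each P70 mouse than in each P43 mouse. The beta 1 laminin chain Lamb1 was at 255 and 228 CPM at P43 and 779.6 and 460.4 CPM at P70 (log2 change 1.66 ± 0.23, adjusted p = 0.00023), and the alpha 4 chain Lama4, which is typical of vessels, at 353 and 385 CPM at P43 and 561 and 460.4 CPM at P70 (log2 change 0.71 ± 0.18, adjusted p = 0.016). The call of Lama4 was lost with DESeq2 and without TMM scaling, and its change lay between 0.47 and 1.105 over the alternatives. Nid2, a nidogen that bridges laminin and collagen IV, was at 51.4 and 40.0 CPM at P43 and 102 and 32.1 CPM at P70 (1.22 ± 0.33, adjusted p = 0.018), a call that was lost without the fibroblast-like cells (adjusted p = 0.065).

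The 2 genes called lower were laminin chains. Lamb2, the beta 2 chain of mature vessels, was at 271 and 272 CPM at P43 and 136 and 85.6 CPM at P70 (log2 change -0.89 ± 0.22, adjusted p = 0.013), lower in both P70 mice. Over the alternatives its change lay between -1.51 and -0.74. The call was lost with DESeq2, with equal cell numbers and without cells carrying markers of another class. Lama5 was at 28 and 19.5 CPM at P43 and 0.827 and 10.7 CPM at P70 (log2 change -3.54 ± 0.81, adjusted p = 0.0079), where mural cells held 1 UMI in each P70 mouse. Both P43 values lie below the floor of 32.1 CPM in mouse 7, so a fall cannot be shown in that mouse. The call of Lama5 was lost with DESeq2. Without mouse 6, the change of Lama5 was -0.94 (adjusted p = 0.75). The nidogen Nid1 was at 1028 and 1135 CPM at P43 and 966 and 653 CPM at P70, the gamma 1 chain Lamc1 at 900.0 and 988 CPM at P43 and 723 and 482 CPM at P70 and Lama2 at 462 and 438 CPM at P43 and 458 and 310.5 CPM at P70. Their log2 changes of -0.16, -0.37 and 0.072 did not pass (adjusted p = 0.62, 0.22 and 0.85), and neither did that of Hspg2 (0.27, adjusted p = 0.46). For Nid1 and Lamc1 both P70 values were nevertheless below both P43 values. Without mouse 6 the changes of Nid1, Lamc1, Lama2 and Hspg2 were -0.57, -0.82, -0.38 and -0.26.

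Of the other collagens 4 of 5 were higher. Col6a3, the largest chain of the beaded filament collagen VI, was at 3.11 and 6.15 CPM at P43 and 151 and 203 CPM at P70 (log2 change 5.20 ± 0.37, adjusted p = 1.9e-06). In the pericyte and smooth muscle cluster it was at 1.61 and 2.08 CPM at P43 and 126 and 203 CPM at P70, where P43 likewise rests on 3 UMIs. The other chains of collagen VI were Col6a1, at 21.8 and 12.3 CPM at P43 and 203 and 53.5 CPM at P70 (3.60 ± 0.42, adjusted p = 4.9e-05), and Col6a2, at 60.7 and 32.8 CPM at P43 and 177 and 85.6 CPM at P70 (2.03 ± 0.32, adjusted p = 0.00059). The network-forming vessel collagen Col8a1 was at 46.7 and 36.9 CPM at P43 and 198 and 385 CPM at P70 (log2 change 2.76 ± 0.30, adjusted p = 2.6e-05). None of these 4 genes overlapped between the ages. Col12a1 was at 57.6 and 20.5 CPM at P43 and 24 and 0 CPM at P70 and did not pass (-0.53, adjusted p = 0.55).

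Of the 8 genes of the elastic fibre, 6 could be tested and 5 were higher. Fbn1, the fibrillin that forms the microfibrils, was at 6.23 and 0 CPM at P43 and 261 and 96.4 CPM at P70 (log2 change 6.59 ± 0.59, adjusted p = 7.9e-06). For Fbn1, P43 rests on 4 UMIs in all, so that it passed the filter through P70. Ltbp4 was at 43.6 and 48.2 CPM at P43 and 147 and 118 CPM at P70 (1.82 ± 0.24, adjusted p = 0.00017). Lox, the lysyl oxidase that crosslinks collagen and elastin, was at 1.56 and 12.3 CPM at P43 and 71.1 and 32.1 CPM at P70 (log2 change 3.23 ± 0.51, adjusted p = 0.00055), where the value of mouse 7 is at the floor. In these 3 genes both P70 values were above both P43 values. Of the fibulins, which bind elastin and fibrillin, Fbln1 was at 45.2 and 27.7 CPM at P43 and 126 and 85.6 CPM at P70 (1.96 ± 0.30, adjusted p = 0.00044). Fbln5 was at 12.5 and 4.10 CPM at P43 and 31.4 and 0 CPM at P70 (2.10 ± 0.62, adjusted p = 0.03), called with the ages overlapping. Fbln2 did not pass (0.56, adjusted p = 0.5). Eln, which encodes elastin, was at 3.11 and 1.03 CPM at P43 and 72.8 and 10.7 CPM at P70, and Loxl1, a lysyl oxidase of elastic fibres, at 1.56 and 1.03 CPM at P43 and 80.2 and 0 CPM at P70, and both were below the filter for the test.

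Among the proteoglycans, Bgn, the small proteoglycan biglycan, was at 1031 and 908 CPM at P43 and 1424 and 1167 CPM at P70 (log2 change 0.64 ± 0.17, adjusted p = 0.017). Over the alternatives its change lay between 0.43 and 0.76. The call of Bgn was lost with equal cell numbers, with DESeq2 and without TMM scaling. Dcn was at 179 and 73.9 CPM at P43 and 501 and 85.6 CPM at P70 (1.82 ± 0.47, adjusted p = 0.015), and Lum at 32.7 and 12.3 CPM at P43 and 68.6 and 10.7 CPM at P70 (1.76 ± 0.46, adjusted p = 0.017). In Dcn and Lum the ages overlapped. Both calls rest on mouse 6, which had most of the fibroblast-like cells, and without it the changes were -0.35 and -0.80. In the pericyte and smooth muscle cluster Dcn was at 38.7 and 28.1 CPM at P43 and 53.4 and 85.6 CPM at P70, with both P70 values higher. Vcan was below the filter in mural cells.

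Of the further glycoproteins, Fn1 changed most. Fn1 encodes fibronectin, which links cells to collagen, and it was at 23.4 and 24.6 CPM at P43 and 1447 and 674 CPM at P70 in mural cells (log2 change 5.74 ± 0.36, adjusted p = 8.7e-07). Both P70 mice were above both P43 mice, without mouse 6 the change was 4.95, and in the pericyte and smooth muscle cluster the means were 46.4-fold apart. Mgp was at 3129.6 and 4799.7 CPM at P43 and 9412 and 12023 CPM at P70 (log2 change 1.61 ± 0.18, adjusted p = 4.2e-05). Timp3, an inhibitor of metalloproteases that is bound to the matrix, was at 343 and 241 CPM at P43 and 1269.9 and 931 CPM at P70 (log2 change 2.16 ± 0.22, adjusted p = 1.8e-05). For both genes the ages did not overlap. Postn, which encodes periostin, was at 114 and 87.2 CPM at P43 and 219 and 85.6 CPM at P70 (1.14 ± 0.29, adjusted p = 0.015), with overlapping ages, and without mouse 6 the change was -0.054. Sparc, at 3773 and 3308 CPM at P43 and 3566 and 2826 CPM at P70, and Tgfbi, at 184 and 108 CPM at P43 and 118 and 74.9 CPM at P70, did not pass (log2 changes of 0.056 and -0.16, adjusted p = 0.85 and 0.76). Tnc, at 1.56 and 0 CPM at P43 and 35.6 and 0 CPM at P70, was below the filter.

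**Figure D4:**
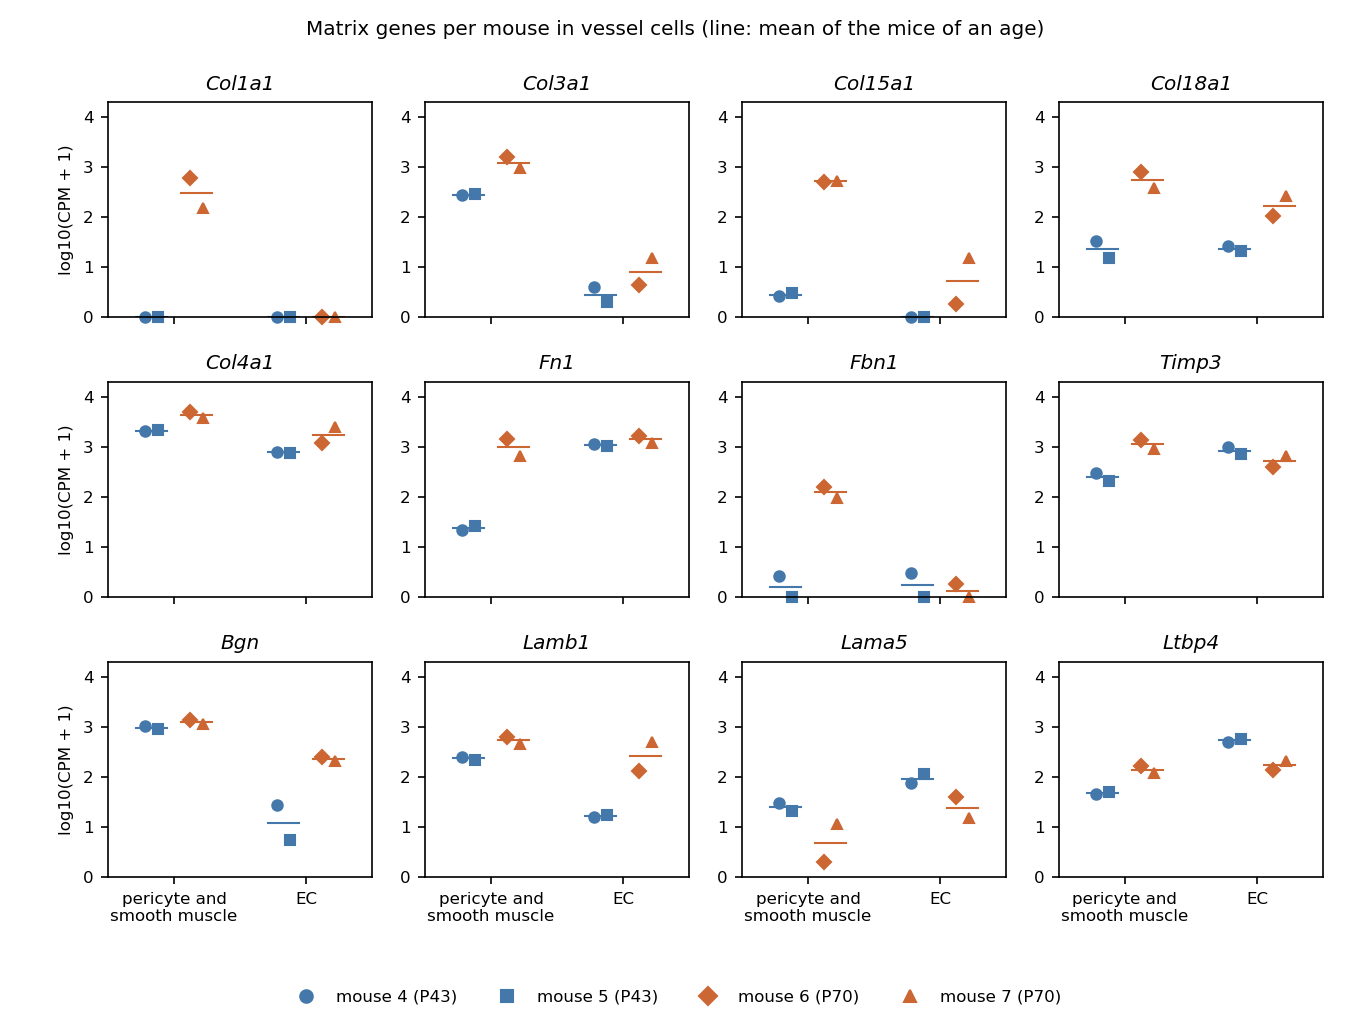
Level of 12 matrix genes as log10(CPM + 1) in the pericyte and smooth muscle cluster and in EC, 1 point per mouse (blue P43, orange P70), with a line at the mean of the points of an age. Fn1 lies at 21 and 25 CPM at P43 and at 1457 and 674 CPM at P70 in the pericyte and smooth muscle cluster, while its EC values are between 1046 and 1695 CPM.

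By group, the summed level in the pericyte and smooth muscle cluster, as the ratio of the P70 mean to the P43 mean, was 3.36 for the fibrillar collagens, 1.61 for the basement membrane, 5.70 for the other collagens, 4.57 for the elastic fibre, 1.36 for the proteoglycans and 2.05 for the glycoproteins. Over all 42 genes the ratio was 1.93, with means of 16843 CPM at P43 and 32508 CPM at P70. Much of this rise was Mgp, with means of 4055 CPM at P43 and 10850 CPM at P70. Sparc, also a large part of the sum, had means of 3512 and 3191 CPM. Markers and the reporter were measured in the same cluster. The pericyte markers of this cluster summed to 36722 and 41450 CPM at P43 and 25618 and 20224 CPM at P70, with Vtn at 16537 and 16196 CPM at P43 and 4245 and 3223 CPM at P70 and Rgs5 between 10534 and 15199 CPM. The fibroblast markers summed to 1519, 1374, 3498 and 2334 CPM. The smooth muscle markers summed to 4637, 4489, 4825 and 5514 CPM, with Acta2 at 485 and 382 CPM at P43 and 940.5 and 1574 CPM at P70. The reporter of the tumor cells was at 53.2, 68.7, 131 and 182 CPM in the cluster. EC markers summed to 443, 360, 591 and 600 CPM in the cluster, against 13871 to 20925 CPM in the EC themselves. Dividing cells made up 0.746%, 0.382%, 11.2% and 10.8% of the cluster. Without them 28 matrix genes were higher and 2 lower, as with them, where 825 of all 8530 genes were higher and 713 lower. Without integration, the mural cells split largely by age into different clusters. A cluster led by the pericyte list held 262, 260, 18 and 13 cells. A cluster led by the smooth muscle list held 32, 8, 220 and 24 cells. Summed over both, 27 of 37 matrix genes were higher at P70 and 2 lower, where 925 of all 8613 genes were higher and 671 lower. The part of this split, of these markers and of the reporter in the result was not tested.

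The rise was also seen per cell, in cells thinned to 2000 UMIs, without those of lower depth. In the pericyte and smooth muscle cluster, a cell had a UMI of 10.7 and 10.3 matrix genes at P43 and of 15.1 and 15.3 matrix genes at P70, over 155, 225, 97 and 15 cells. Left out were 113, 37, 117 and 22 cells. In EC it was 5.98, 5.87, 6.76 and 7.22 genes, with 9 cells in mouse 7, and in OL-like cells between 1.20 and 1.45 genes. Fn1 had a UMI in 1.29% and 2.67% of the pericyte and smooth muscle cells at P43 and in 71.1% and 73.3% at P70. Lymphoid cells, taken as a class that should lack the gene, had a UMI in 4.44%, 0.775%, 1.37% and 0% of 45, 129, 73 and 4 cells. At P43 the share in pericyte and smooth muscle cells was below the lymphoid share in mouse 4 and above it in mouse 5. Both P70 shares were above the lymphoid shares, of which that of mouse 7 rests on 4 cells. Unthinned, the shares of pericyte and smooth muscle cells were 3.36%, 4.58%, 58.4% and 45.9%. For Col15a1 the shares were 0% and 0% at P43 and 41.2% and 53.3% at P70, and for Col3a1 36.8% and 36.9% and then 76.3% and 80.0%. Shares were given no test.

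**Figure D5:**
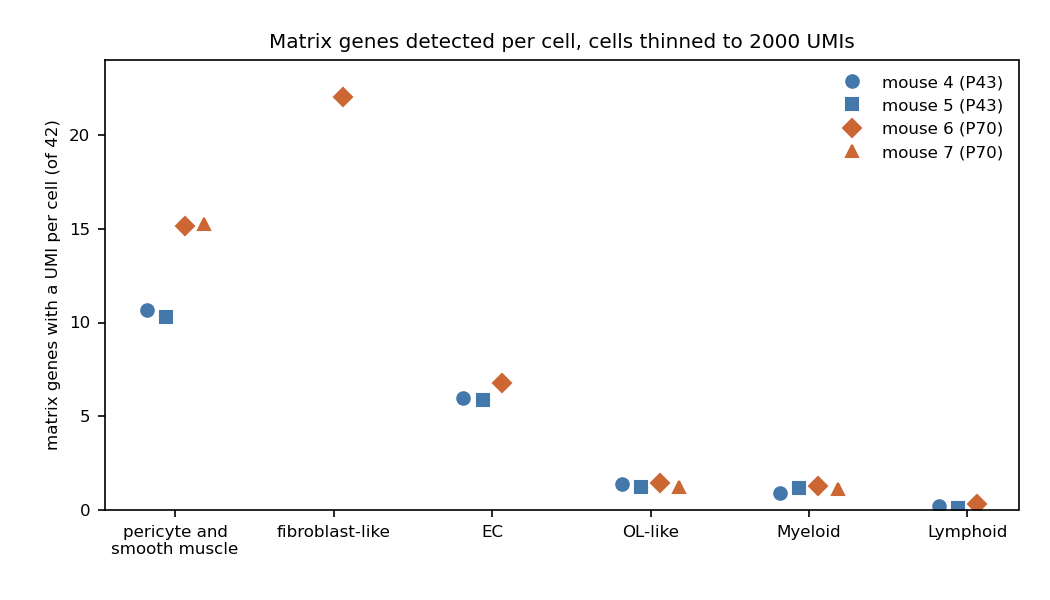
Mean number of the 42 matrix genes with a UMI per cell (vertical axis, from 0) after thinning to 2000 UMIs, by class, 1 point per mouse with at least 10 such cells. The pericyte and smooth muscle cluster lies at 10.7 and 10.3 genes at P43 and at 15.1 and 15.3 genes at P70, and the 19 fibroblast-like cells of mouse 6 at 22.1 genes.

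In EC, most of the genes that changed with age belonged to the basement membrane. Of the 42 genes 20 could be tested, and 10 were higher and 3 lower at P70, where 6.06% of all 8794 genes were higher and 3.66% lower. The median log2 change was 0.78 over the 20 genes and -0.04 over all genes, and the 17 genes with at least 10 UMIs at each age held 9 that were higher and 2 that were lower. Of the 10 that were higher, 8 belonged to the 11 tested genes of the basement membrane. Lamb1 was at 15.1 and 16.3 CPM at P43 and 133 and 503 CPM at P70 (log2 change 3.83 ± 0.44, adjusted p = 2.9e-05), and Nid1 at 96.8 and 93.7 CPM at P43 and 335 and 629 CPM at P70 (log2 change 2.21 ± 0.24, adjusted p = 1.7e-05). Lama4 was at 95.8 and 80.0 CPM at P43 and 247 and 545 CPM at P70 (log2 change 1.96 ± 0.27, adjusted p = 0.00014). For these 3 genes both P70 values were above both P43 values, with mouse 7 higher than mouse 6. Col4a1 was at 791 and 771 CPM at P43 and 1224 and 2473 CPM at P70 (1.21 ± 0.26, adjusted p = 0.0056) and Col4a2 at 611 and 627 CPM at P43 and 931 and 1690.4 CPM at P70 (1.05 ± 0.24, adjusted p = 0.0089). The ratio of their UMIs was 1.29, 1.23, 1.32 and 1.46, lower in every mouse than in the pericyte and smooth muscle cluster. Col18a1 was at 25.2 and 19.9 CPM at P43 and 103 and 265 CPM at P70 (2.64 ± 0.33, adjusted p = 6.0e-05), Lamc1 at 139 and 116 CPM at P43 and 228 and 363 CPM at P70 (1.12 ± 0.23, adjusted p = 0.0036), and Nid2 at 41.3 and 53.5 CPM at P43 and 81.4 and 209.6 CPM at P70 (1.15 ± 0.31, adjusted p = 0.025). In Col4a1, Col4a2, Col18a1, Lamc1 and Nid2, too, the ages did not overlap.

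Outside the basement membrane, Bgn in EC was at 26.2 and 4.58 CPM at P43 and 252 and 209.6 CPM at P70 (log2 change 4.32 ± 0.45, adjusted p = 1.2e-05), and Fbln5 at 3.03 and 1.02 CPM at P43 and 10.2 and 97.8 CPM at P70 (3.50 ± 0.99, adjusted p = 0.033). The values of Fbln5 rest on 5 UMIs at P43 and 19 UMIs at P70. Its call held under 7 of the 13 alternative settings that gave it a value. The genes that fell were Ltbp4, from 497 and 581 to 140.0 and 209.6 CPM (-1.72 ± 0.23, adjusted p = 0.00012), Fbln2, a fibulin of the basement membrane and elastic fibre, at 30.3 and 27 CPM at P43 and 4.24 and 14 CPM at P70 (-2.39 ± 0.56, adjusted p = 0.011), and Lama5, at 75.6 and 113 CPM at P43 and 38.2 and 14 CPM at P70 (-1.30 ± 0.33, adjusted p = 0.017). In Ltbp4, Fbln2 and Lama5 both P70 values were below both P43 values, where 1 UMI was counted for Fbln2 and for Lama5 in mouse 7. The P43 values of Fbln2 lie below the floor of 41.9 CPM in the EC of mouse 7. Fn1 and Sparc were at 1164 and 1046 CPM at P43 and 1695 and 1215 CPM at P70 and at 5133 and 4320.4 CPM at P43 and 5465 and 4512 CPM at P70, and did not pass (0.51 and 0.15, adjusted p = 0.23 and 0.82). No fibrillar or other collagen outside the basement membrane reached the filter in EC. In total 5 of the 13 calls (Bgn, Ltbp4, Col18a1, Nid1 and Lamb1) held under every setting that gave a value. Of the fits that left out a mouse, that without mouse 5 kept the fewest of the 13.

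Whether the change with age differed between mural cells and EC was tested as an interaction of class and age, the mouse being a block. In 9 of 41 genes the change was more positive in mural cells and in 6 more negative. Of all 10342 genes, 5.72% were more positive and 4.58% more negative. Only 20 matrix genes reached the filter of the age test in EC. Others among the 41 could enter through mural cells alone and were not counted apart. The difference was clearest for Fn1, at 5.13 ± 0.34, adjusted p = 5.5e-47, which changed from 23.4 and 24.6 to 1447 and 674 CPM in mural cells while its EC levels lay between 1046 and 1695 CPM. Ltbp4 went up in mural cells and down in EC, a difference of 3.58 ± 0.30, adjusted p = 2.7e-30. Nid1 and Bgn changed more upward in EC than in mural cells, at -2.34 ± 0.27, adjusted p = 4.1e-15 and -3.69 ± 0.35, adjusted p = 1.3e-23. For Col4a1 and Col4a2 the difference between the classes did not pass (0.038 and 0.26, adjusted p = 0.99 and 0.71), although both were called without mouse 7. The model has 2 residual degrees of freedom and takes its spread largely from all other genes, and without mouse 6 Fn1, Timp3, Nid1 and Lamb1 were left.

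In the OL-like tumor cells no matrix gene was called with age by edgeR, of 27 tested, where 0% of all 11549 genes were called. At an unadjusted p under 0.05, 5 matrix genes (Col5a2, Col1a2, Mgp and Tgfbi lower, Lamb1 higher) and 496 of all genes passed. DESeq2 called 2 of 31 matrix genes lower, where it called 15 of all 12598 genes higher and 21 lower. Mgp there was at 62.6 and 445 CPM at P43 and 22.4 and 19.4 CPM at P70, high in mouse 5 alone, and Col4a1 at 44.9 and 31.2 CPM at P43 and 44.3 and 112 CPM at P70, with overlapping ages. In Myeloid cells 3 matrix genes could be tested and 0 were called by edgeR, where 0.134% of all 5223 genes were called. At an unadjusted p under 0.05, 1 of the 3 and 590 of all genes passed. DESeq2 called 1 of 4 matrix genes higher and 1 lower, where it called 43 of all 4022 genes higher and 30 lower. Tgfbi was at 434 and 769 CPM at P43 and 1894 and 1106 CPM at P70 in Myeloid cells, higher in both P70 mice, with a log2 change of 1.37 ± 0.35, adjusted p = 0.17. Fn1 there was at 499.8 and 402 CPM at P43 and 212 and 322 CPM at P70, lower in both P70 mice (-0.70 ± 0.31, adjusted p = 0.44).

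Genes that process collagen, cut the matrix or bind to it were taken from 4 further lists. Of all genes tested, 11.2% were higher and 8.12% lower at P70 in mural cells, and 6.06% higher and 3.66% lower in EC. Of the collagen processing genes in mural cells 5 of 12 tested were higher at P70 and 1 lower, led by Bmp1, which trims procollagen (3.50 ± 0.27, adjusted p = 2.9e-06), then Pcolce, which enhances this cleavage (1.01), and Fkbp10, a collagen chaperone (0.91), while P4ha1, a prolyl hydroxylase subunit, fell (-0.78). Of the proteases and inhibitors 9 of 12 were higher and 0 lower, with the protease inhibitors Timp1 (5.05 ± 0.47, adjusted p = 1.1e-05) and Timp2 (3.45) and the procollagen peptidase Adamts2 (3.73) in front. The matrix receptors split into 6 higher and 5 lower of 16, the syndecan Sdc1 (7.13), the integrin chain Itga6 (5.06) and the hyaluronan receptor Cd44 (3.90) against dystroglycan (Dag1, -1.22), the integrin chain Itga4 (-1.21) and the syndecan Sdc2 (-1.21). Of the TGF-beta and PDGF signalling genes 5 of 15 were higher, led by Ccn2 (1.83), Acvrl1 (1.78) and Ccn1 (1.55). The 2 that were lower were the TGF-beta co-receptor Eng (-0.82) and the pericyte receptor Pdgfrb (-0.63). Without mouse 6, Sdc1, Cd44 and Adamts2 gave no value in mural cells. The change was then 0.99 ± 1.34 for Acvrl1, 0.97 ± 0.47 for Fkbp10, 0.91 ± 0.29 for Pcolce, -0.45 ± 0.36 for P4ha1 and -1.24 ± 0.48 for Eng. All other mural genes named here kept their sign as well. In EC, 2 of 11 collagen processing genes (Fkbp10 and Plod1), 5 of 8 proteases and inhibitors (Mmp14 and Timp1 among them), 3 of 10 receptors (Sdc4, Itga5 and Itga4) and 3 of 14 signalling genes (Bambi, Ccn2 and Ccn1) were higher, and Smad7 and Tgfb2 of the last list were lower.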

How the data were processed

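Tumors were dissociated with papain, dead cells were removed by a 7-AAD stain, and 3′ libraries were made on the 10x Genomics platform (single-index per the methods, dual-index per the labels). The deposited values are raw UMI counts per gene and cell barcode, which the authors made with Cell Ranger 6.0.2 (submitters' processing notes) from reads aligned to mm10 with luciferase and human MYCN added, without normalization. Kept were cells with at least 200 genes, no more than 40000 UMIs and a mitochondrial share of UMIs under 25%, counting genes seen in at least 3 cells of a library, in all 10975 of 11834 barcodes. This UMI limit was the treatment of doublets, and no caller was run. Seurat 5.3.0 (R 4.3.3) integrated the mice over 2000 variable genes, without the matrix and related genes, and found 19 clusters (30 principal components, resolution 0.5). Clusters of at least 500 CPM of the reporter were called tumor, a limit set with earlier results seen. A name needed at least 3 marker genes raised at least 2-fold with 10 CPM added, and the leading genes decided between lists.

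UMI counts were summed per mouse and class, for classes with at least 20 cells in each mouse, and tested by edgeR 4.0.16 (TMM, filterByExpr, quasi-likelihood test, Benjamini-Hochberg adjustment over all genes tested, limit of 0.05), with the mouse as a block between classes. Nothing says how the mice were spread over preparations. The p-values rest only in part on the spread of a gene between mice. With so few mice, edgeR takes the spread largely from all genes tested. In tests on simulated data, 80.5% of 200 genes changed 4-fold were recovered in mural cells, 86.5% in EC, 71.5% in OL-like and 67% in Myeloid cells, 89.5% and 86% for mural cells against EC and OL-like cells, and 64% for the interaction, over 8449, 8779, 11578, 5200, 9158, 10953 and 9952 genes. Shares of cells came from cells thinned to 2000 UMIs. Sequences came from RefSeq tables of GRCm38.p6.

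The members and the gene lists were chosen with earlier results of these data known. Values per mouse were given for members that passed a test or led their role group, and of each related list the passing genes were counted and up to 3 in each direction named, except for a gene that is not reported here. The alternatives raised the UMI limit to 60000, lowered the mitochondrial limit to 10%, set the resolution to 1, and used no integration, clustering with the matrix genes, no cells with markers of another class, no fibroblast-like cells, equal cell numbers, DESeq2 1.42.0, no TMM, no filter, and leaving out each mouse. Leaving out dividing cells or a sub-cluster of few UMIs was added after seeing the data.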

Additional observations from a re-analysis of the deposited data

Results flagged for a closer look

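The change with age differed between mural cells and EC for 15 matrix genes by the interaction term (edgeR, adjusted over all genes tested, mouse as a block), each value being the log2 change in mural cells minus that in EC. The largest positive differences were those of Fbn1 at 6.70, Eln at 5.87, Fn1 at 5.13 and Vcan at 4.42. Fbn1, Eln and Vcan had at most 14 UMIs in the EC of any mouse, and 4, 3 and 7 UMIs in the mural cells of P43. Their changes in both classes thus rest on few counts, and Eln and Vcan were below the filter of the age test in mural cells. Ltbp4 stood at 3.58, Fbln2 at 2.95, Timp3 at 2.93, Col18a1 at 2.42 and Mgp at 1.56. The change was more positive in EC for Tgfbi at -4.23, Bgn at -3.69, Nid1 at -2.34, Lamb1 at -1.85, Lamc1 at -1.45 and Lama4 at -1.17. Without mouse 6, the differences of Fn1, Timp3, Nid1 and Lamb1 still passed, and those of Fbln2, Vcan and Tgfbi changed sign. No matrix gene was set apart as having 1 mouse far from the others, since the groups hold 2 mice each.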

How the results depend on the processing

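With equal cell numbers, fewer genes could be tested. With age in mural cells 16 of 26 matrix genes were called (16 higher, 0 lower), where 251 of all 2640 genes were higher and 181 lower. In EC 6 of 14 were called, where 72 of all 2327 genes were higher and 51 lower. Between mural cells and EC 13 of 18 were called, where 335 of all 2323 genes were higher and 378 lower. In the interaction 5 of 27 were called, where 34 of all 3510 genes were more positive and 44 more negative. DESeq2 called 19 of 42 in mural cells (19 higher, 0 lower), where 351 of all 9710 genes were higher and 199 lower. It called 2 of 31 in OL-like cells (15 of all 12598 genes higher, 21 lower) and 2 of 4 in Myeloid cells (43 of 4022 higher, 30 lower). In the interaction it called 6 of 28, where 90 of all 4238 genes were more positive and 71 more negative. With no filter on low counts 2 of 29 were called in Myeloid cells, where 160 of all 13317 genes were higher and 110 lower. Leaving out each mouse in turn gave 14 to 34 called genes in mural cells, with the 14 without mouse 6, 8 to 16 in EC, with the 8 without mouse 5, 0 to 3 in Myeloid cells, 23 to 26 between mural cells and EC, 30 to 33 between mural and OL-like cells, and 4 to 18 in the interaction, with the 4 without mouse 6. Over the same fits the mural changes ranged from -0.054 to 1.35 for Postn, from -0.35 to 2.43 for Dcn, from -0.80 to 2.37 for Lum and from -0.33 to 1.38 for Nid2, and the interactions from -5.33 to 3.25 for Fbln2, from -4.32 to 3.24 for Tgfbi and from -5.73 to 4.92 for Vcan, each of them reversed without mouse 6. The cause was not tested. Each fit without a mouse leaves 1 mouse at 1 age, so its count of called genes was not set against all genes. Without mouse 4, 5, 6 and 7, the median mural log2 change was 2.06, 1.48, 1.015 and 1.98 over the matrix genes. Over all genes it was -0.0052, -0.058, -0.195 and -0.020. The median interaction was 0.324, 1.17, -0.567 and 1.455 over the matrix genes and -0.032, 0.023, 0.024 and 0.038 over all genes. Thinned to 1000 UMIs, the rise in the share of pericyte and smooth muscle cells with a UMI was 13.6 percentage points for Col1a1, 46.6 for Fn1 and 23.0 for Col15a1, against 26.0, 70.2 and 47.3 at 2000 UMIs. The other settings kept each count within 1.5 times, and the log2 ratio of mural cells to EC stayed between 0.91 and 1.24. Few UMIs in the vessel cells of mouse 7 limit all comparisons of low genes.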
